A study of Danio rerio with 2 samples.

Results

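The cytochrome P450 genes of the zebrafish gut were described across gut cell types and between WT and il26-/- larvae. A gene was a member when its symbol began with cyp followed by a digit, and 80 of the 27056 symbols met this rule. Their UMI counts, which are counts of captured transcripts, came from 2 droplet single-cell RNA sequencing libraries of dissected guts at 5 days post-fertilization (dpf), 1 from WT larvae and 1 from il26-deficient (il26KO) larvae. Each library pooled 50 guts that were dissociated in 5 tubes of 10, live cells were enriched on a density gradient, and transcripts were captured at their 3′ end. The il26KO larvae carried a CRISPR/Cas9 deletion in il26, the zebrafish gene for interleukin 26. Larvae of the 2 genotypes came from clutchmate parents that were kept in separate tanks, so genotype, tank and library cannot be told apart. The labels give no treatment for either group. With 1 library per group no replicate exists and no test between the genotypes was made. Intervals are 95% intervals for counting error only.

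Cytochrome P450 enzymes are heme proteins that insert an oxygen atom into small, mostly fat-soluble molecules. Most sit in the endoplasmic reticulum and take electrons from P450 reductase, and others sit in mitochondria and take them from ferredoxin. Members of families named 1 to 4 act on drugs, pollutants, plant compounds and fatty acids. Others make or break down bile acids, cholesterol, steroid hormones, vitamin D and retinoic acid. In vertebrates the liver and the absorptive cells of the intestine are the main sites of the first kind, which meets compounds taken up with food.

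The WT library held 125236138 UMIs and the il26KO library 122200924. After filtering, 5122 WT and 3841 il26KO cells were kept, with a median of 10214.5 and 14257 UMIs per cell, and 10 cell barcodes occurred in both libraries. The targeted gene il26 had 1 UMI in WT and 0 in il26KO, too few to check the labels. Clusters were made without the P450 genes, and all 32 were named in 15 classes from fixed marker lists. The class names stand for cells that are like that type. Own markers higher inside the class than outside it in both libraries were at least 10 of 11 in anterior and lysosome-rich enterocyte-like cells. They were 6 of 7 in ileal enterocyte-like and 10 of 10 in mesenchymal-like cells. Counts were 5 of 7 in best4 enterocyte-like, 5 of 6 in goblet-like and 7 of 8 in epithelial progenitor-like cells. In duct-like cells they were 8 of 8 in WT and 7 of 8 in il26KO. RNA of other cell types was present too. The 12 pancreatic acinar markers summed to 740 CPM in WT (CPM are UMIs scaled to a total of 1000000 over the cells in question) and 183 in il26KO over all kept cells, and the 15 hepatocyte markers to 410 and 675. In barcodes of 10 to 100 UMIs, which are taken as empty droplets that hold only free RNA, acinar markers made 10283 CPM in WT and 366 in il26KO, and hepatocyte markers made 408 and 3554. All 12 acinar and all 15 hepatocyte markers were detected among the kept cells of both libraries.

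Of the 80 members, 71 had at least 50 UMIs over both libraries in kept cells, 66 had at least 100 and 45 at least 1000. Another 8 had between 1 and 49 UMIs: the steroid genes cyp11a1, cyp11a2, cyp17a2 and cyp19a1a, the sterol genes cyp39a1 and cyp8b3, and cyp2aa9 and cyp2k22. The member cyp1c1 had 0 UMIs, which allows a level of up to 0.0301 CPM in WT and 0.0311 in il26KO. All members together had 304993 UMIs in WT and 335539 in il26KO. The deposited table carried 84 feature identifiers for the 80 symbols, because 4 symbols had 2 identifiers each, and their counts were summed. For cyp2k6 nearly all UMIs fell on ENSDARG00000098995 (15278 in WT and 4785 in il26KO) and 0 and 1 on the other identifier. Many members lie beside other members of the same subfamily. How alike their sequences are was not measured, and reads that could be split between similar copies make the single values of close paralogues uncertain. A CPM value here is a share of captured 3′ ends, into which transcript length does not enter.

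P450 transcripts were most abundant in absorptive cells. Anterior enterocyte-like cells, which take up fat and peptides, held 5575 P450 CPM in WT (interval 5550 to 5599) and 5783 in il26KO (5760 to 5805). Ileal enterocyte-like cells, which take up bile salts, held 3528 and 3273 CPM. Lysosome-rich enterocyte-like cells, which take up and digest luminal protein, held 2462 and 2118. These 3 classes had the highest summed levels in both libraries, in this order.

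The other epithelial classes were lower. Best4 enterocyte-like cells held 1978 CPM in WT and 2057 in il26KO, goblet-like cells 1758 and 1057, enteroendocrine-like cells 1373 and 1319, and duct-like cells 1120 and 977. The goblet-like class also held much acinar RNA. Its acinar markers summed to 42358 CPM in WT and 19894 in il26KO, above its own goblet markers (11651 and 11352). Its P450 values therefore cannot be read as those of goblet cells alone. Epithelial progenitor-like cells held 876 and 593. Among the remaining classes, mesenchymal-like cells reached 1810 and 1647 CPM and epidermal-like cells 1562 and 1564. The name epidermal-like does not place these cells outside the gut epithelium. The leading genes of its cluster 8 included krt92, which is on the ileal enterocyte list. Endothelial-like cells held 717 and 769, smooth muscle-like cells 631 and 762, neuron-like cells 417 and 631, and leukocyte-like cells, the lowest class with at least 50 cells in each library, 188 and 241. Skeletal muscle-like cells, with only 18 cells in il26KO, held 197 and 201 CPM.

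Free RNA can add to the level of any class. Empty droplets held 2807 P450 CPM in WT and 2710 in il26KO, so that only the anterior and the ileal enterocyte-like classes lay above them in both libraries. This level is a share of the free RNA and not the amount that free RNA adds to a cell. Leukocyte-like cells lay far below it, at 188 and 241 CPM. How much of the level of a class below the empty droplets came from free RNA was not tested. Cells with at least 1000 UMIs were thinned to 1000, and shallower cells were left out (8 WT and 4 il26KO cells of the anterior class). After thinning, the share of anterior enterocyte-like cells with at least 1 P450 UMI was 98.8% in WT and 98.7% in il26KO (100% and 99.9% without thinning). Shares without thinning are of all cells of the class. In leukocyte-like cells, which should hold few P450 transcripts, the share was 20.4% and 18.8% (84.96% and 84.0% without thinning). Median depth before thinning was 35444.5 and 48435 UMIs in the first class and 17230.5 and 22781 in the second. Lysosome-rich enterocyte-like cells lay between, at 88.5% and 84.7%, as did mesenchymal-like cells at 76.4% and 71.8%.

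**Figure D1:**
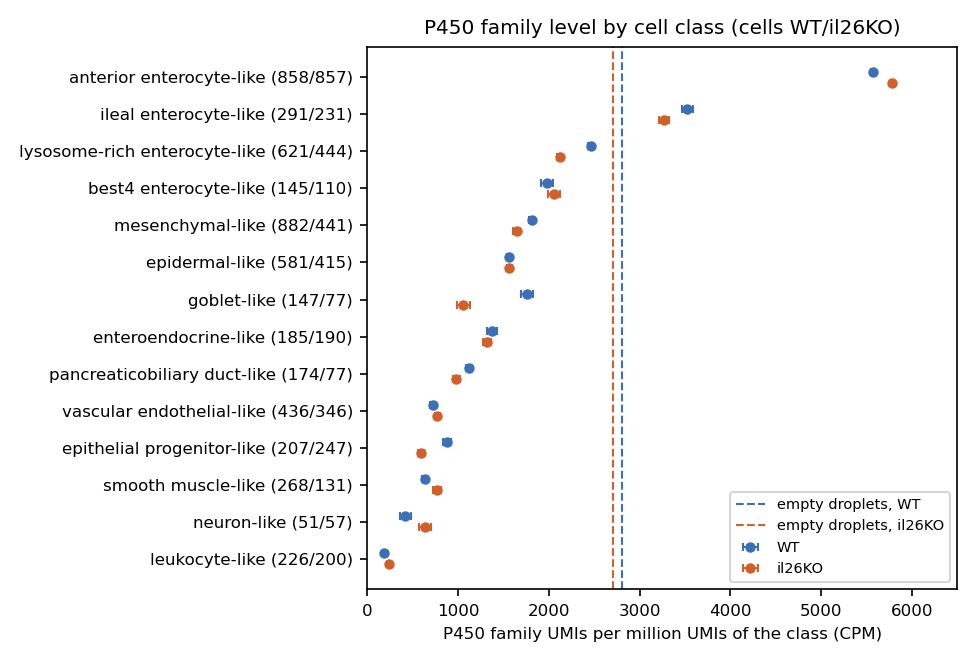
Summed level of all P450 members in each class, in CPM of the class total, for WT and il26KO, with 95% counting intervals and the level in empty droplets. The anterior (5575 and 5783 CPM) and ileal (3528 and 3273 CPM) enterocyte-like classes lay above the empty droplets of both libraries.

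Single members were distributed over the classes in different ways. Of the 71 members with at least 50 UMIs, 51 had their highest level in the same class in both libraries. That class was anterior enterocyte-like for 20, ileal enterocyte-like for 6, mesenchymal-like for 5, lysosome-rich enterocyte-like for 4, epidermal-like for 4, duct-like for 3, neuron-like for 3, endothelial-like for 2, enteroendocrine-like for 2, best4 enterocyte-like for 1 and goblet-like for 1. For the other 20 members the class differed between the libraries. The same count was not made over all genes, so the members cannot be compared with them. A class was clear of the empty droplets when its counting interval lay wholly above theirs in both libraries. None of the 4 epidermal-like, 3 neuron-like, 1 goblet-like and 1 best4 enterocyte-like members was clear of them in its highest class. Of the anterior members cyp3a65 and cyp2n13 were clear of them there, but cyp2p6 and cyp2p8 were not.

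**Figure D2:**
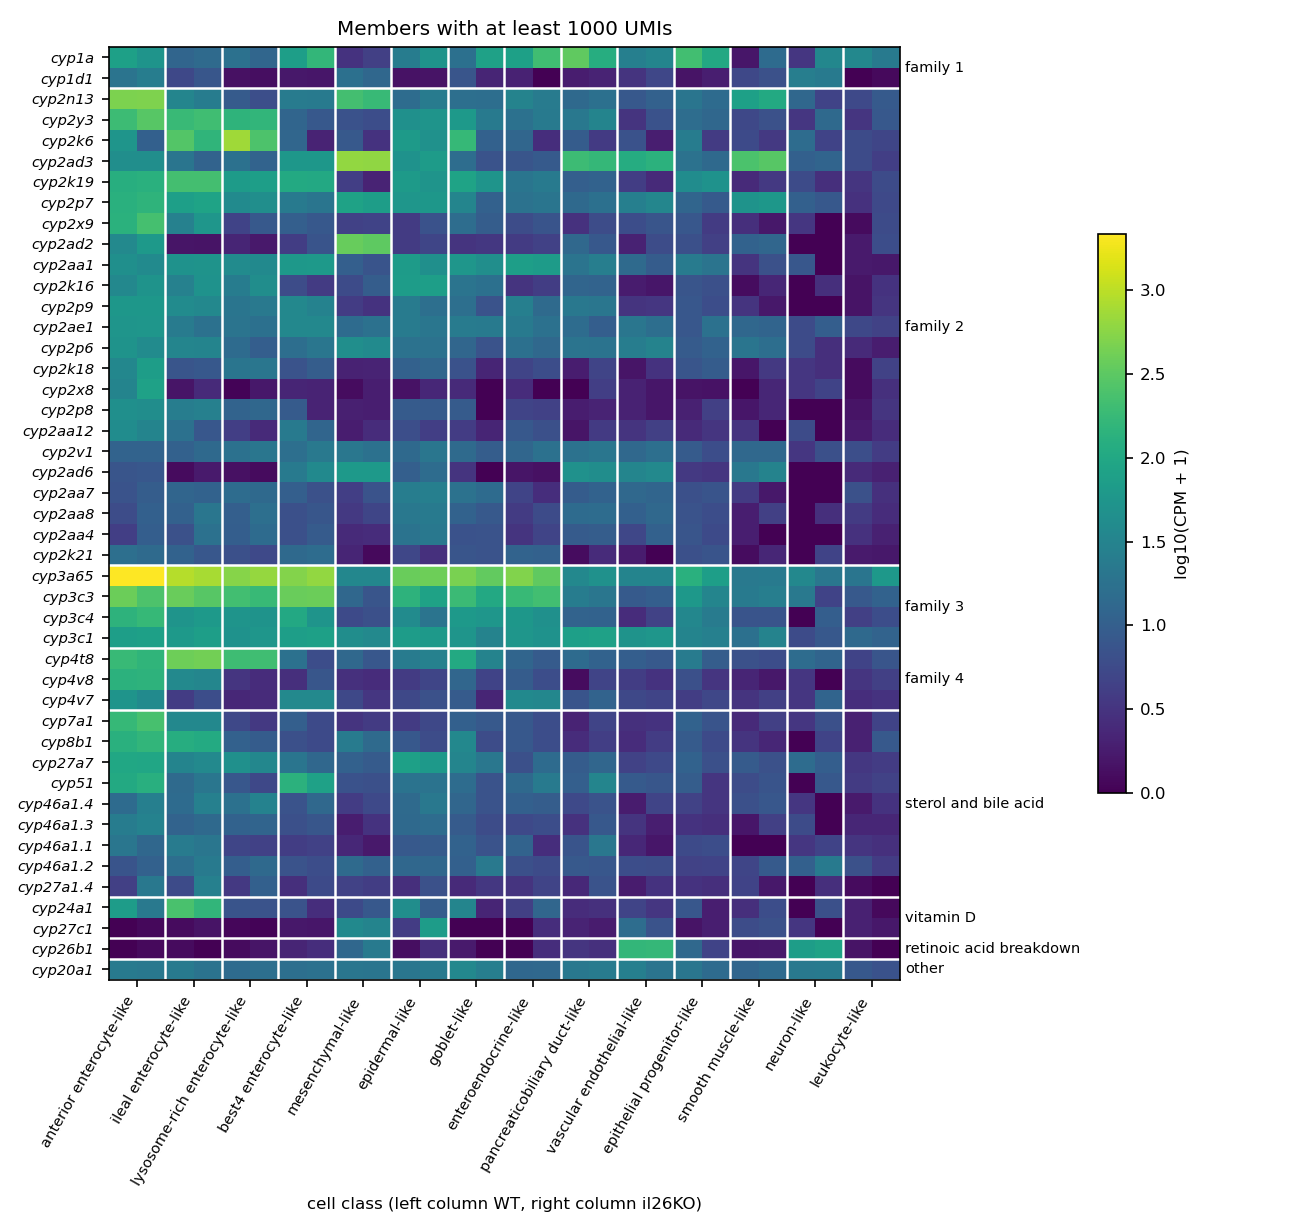
Level of each of the 45 members with at least 1000 UMIs (rows, grouped by role) in each class (paired columns, WT left and il26KO right), as colour on a log10(CPM + 1) scale. The map shows cyp3a65 highest in anterior enterocyte-like cells, the cyp2ad genes in mesenchymal-like cells and cyp26b1 in endothelial-like cells.

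Family 3 was led by cyp3a65 (ENSDARG00000103295), the zebrafish relative of the human drug-metabolising enzyme CYP3A4. It made 31.9% of all P450 UMIs in WT and 33.9% in il26KO. Its level in anterior enterocyte-like cells was 2164 CPM (76886 UMIs; interval 2149 to 2179) in WT and 2156 CPM (95237 UMIs; 2142 to 2170) in il26KO. Ileal enterocyte-like cells held 907 and 784 CPM, lysosome-rich enterocyte-like cells 541 and 641, and best4 enterocyte-like cells 525 and 628. It was also the leading member of the enteroendocrine-like (500 and 332 CPM), epidermal-like (371 and 396) and goblet-like classes (462 and 336). Empty droplets held 884 and 819 CPM of cyp3a65, so that of all classes the anterior one alone lay above them in both libraries. The ileal level was above them in WT and below them in il26KO, and the other 5 classes named were below them in both.

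The cyp3c genes, a fish subfamily of family 3, were lower. In the whole of the kept cells cyp3c3 had 223 CPM in WT and 176 in il26KO, with 390 and 252 in anterior, 377 and 296 in ileal and 212 and 177 in lysosome-rich enterocyte-like cells. The neighbouring cyp3c4 had 72.0 and 94.0 CPM over all cells and 142 and 172 in anterior enterocyte-like cells. Levels of cyp3c1 were similar in duct-like (74.7 and 79.7 CPM), anterior enterocyte-like (73.9 and 78.7) and best4 enterocyte-like cells (72.2 and 77.4). Empty droplets held 51.0 and 57.3 CPM of it. None of the 4 family 3 members differed by 2-fold between the libraries over all kept cells. Of all genes with at least 50 UMIs, 3.2% were at least 2-fold higher in il26KO and 2.42% lower.

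Family 2 was the largest group, with 38 members, 36 of them with at least 50 UMIs. It summed to 1113 CPM in WT and 1242 in il26KO. Its leading member was cyp2n13 (ENSDARG00000042953), of a fish subfamily near the mammalian CYP2J enzymes that oxidise arachidonic acid. In anterior enterocyte-like cells cyp2n13 held 481 CPM in WT and 490 in il26KO, against 31.6 and 23.9 in ileal and 8.14 and 5.36 in lysosome-rich enterocyte-like cells. In each library the anterior level was more than 10-fold above that of both other absorptive classes. The member cyp2y3 was spread more evenly over them, with 195 and 293 CPM in anterior, 184 and 203 in ileal and 147 and 158 in lysosome-rich enterocyte-like cells. For cyp2p7 the levels were 130 and 145, 75.7 and 85.7, and 38.7 and 43.3 CPM in the same order. Empty droplets held 96.7 and 152 CPM of cyp2y3 and 69.8 and 64.7 CPM of cyp2p7. For both genes only the anterior class was clear of the empty droplets by counting intervals.

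Other members of family 2 had their highest level elsewhere. In ileal enterocyte-like cells cyp2k19 had 216 CPM in WT and 214 in il26KO, against 123 and 130 in anterior enterocyte-like cells. In mesenchymal-like cells cyp2ad3 (ENSDARG00000022650) was the leading member, at 624 and 597 CPM, and cyp2ad2 had 358 and 322 and cyp2ad6 63.4 and 62.4. Smooth muscle-like cells were also led by cyp2ad3 (247 and 291 CPM), and so were skeletal muscle-like cells. After thinning, 39.4% and 40.1% of mesenchymal-like cells had a cyp2ad3 UMI, against 1.33% and 0.508% of leukocyte-like cells. In mesenchymal-like cells cyp2ad3 alone made 34.5% of the P450 UMIs in WT and 36.2% in il26KO.

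Family 4, whose members oxidise the end of fatty acid chains, had 4 members and summed to 192 and 209 CPM. Its leading member cyp4t8 had its highest level in ileal enterocyte-like cells, at 392 CPM in WT and 416 in il26KO. Levels were 200 and 205 CPM in lysosome-rich and 175 and 153 in anterior enterocyte-like cells. By contrast, cyp4v8 was highest in anterior enterocyte-like cells, at 140 and 142 CPM, against 36.2 and 32.6 in ileal ones. No family 4 member differed by 2-fold between the libraries over all kept cells, where 3.2% of all genes were higher in il26KO and 2.42% lower.

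Family 1 includes genes that the aryl hydrocarbon receptor, a sensor of pollutants and of compounds from diet and microbes, turns on. Its main member cyp1a (ENSDARG00000098315) had 55.3 CPM in WT and 47.9 in il26KO over all kept cells. It was the leading P450 gene of duct-like cells, with 331 CPM (1178 UMIs) in WT and 118 CPM (306 UMIs) in il26KO, and of epithelial progenitor-like cells, with 210 CPM (412 UMIs) and 101 CPM (218 UMIs). These classes had its highest levels in WT only. In il26KO the highest were in enteroendocrine-like (77.6 CPM in WT and 202 in il26KO) and best4 enterocyte-like cells (72.8 and 159). Only 67 WT and 36 il26KO duct-like cells and 31 and 22 progenitor-like cells held a cyp1a UMI. In mesenchymal-like cells the related cyp1c2 had 11.3 and 10.7 CPM, from 82 and 46 UMIs, and 5 and 7 more UMIs in the other classes together. For cyp1b1 no class exceeded 1.90 CPM in either library. Another member, cyp1d1, had 8.37 and 12.6 CPM over all kept cells, from 833 and 1218 UMIs.

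The sterol and bile acid group had 14 members, 12 of them with at least 50 UMIs, and summed to 278 CPM in WT and 386 in il26KO. In both libraries cyp7a1, cyp8b1 and cyp27a7 were highest in anterior enterocyte-like cells, cyp27a1.4 in ileal enterocyte-like, cyp7b1 in best4 enterocyte-like and cyp8b2 in endothelial-like cells. In the anterior class cyp7a1 (ENSDARG00000069018), which catalyses the rate-limiting step of bile acid synthesis, had 173 CPM (6141 UMIs) in WT and 231 CPM (10206 UMIs) in il26KO, against 35.4 and 35.0 in ileal and 4.33 and 2.60 in lysosome-rich enterocyte-like cells. The sterol 12-alpha hydroxylase gene cyp8b1 had 132 and 155 CPM in anterior and 118 and 109 CPM in ileal enterocyte-like cells. For cyp27a7, of the sterol 27-hydroxylase group, anterior enterocyte-like levels were 96.6 and 94.4 CPM. These genes are best known from hepatocytes. Summed hepatocyte markers made 541 CPM in WT and 841 in il26KO of anterior enterocyte-like cells, where all 15 were detected, and 408 and 3554 CPM of empty droplets. Their part in the levels of these genes was not tested.

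Cholesterol synthesis and turnover genes had other patterns. The lanosterol demethylase gene cyp51 was at 136 CPM in WT and 80.2 in il26KO in best4 enterocyte-like cells and at 106 and 126 in anterior enterocyte-like cells, but at 7.16 and 4.34 in lysosome-rich enterocyte-like cells. The 4 copies of cyp46a1, the cholesterol 24-hydroxylase that is known from mammalian brain, were low. Over all kept cells their levels were 10.5 and 8.53 CPM for cyp46a1.1, 8.24 and 10.1 for cyp46a1.2, 13.0 and 17.6 for cyp46a1.3 and 11.1 and 20.5 for cyp46a1.4. The oxysterol hydroxylase gene cyp7b1 had 4.16 and 3.90 CPM.

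In the vitamin D group, the gene that breaks down active vitamin D was by far the most abundant. This gene, cyp24a1 (ENSDARG00000103277), had 241 CPM (890 UMIs) in WT and 155 CPM (622 UMIs) in il26KO in ileal enterocyte-like cells, and 68.1 and 21.1 CPM in anterior ones. The activating 1-alpha hydroxylase gene cyp27b1 had 1.21 and 2.27 CPM over all kept cells and was highest in duct-like cells, from 27 and 39 UMIs. The 25-hydroxylase gene cyp2r1, which acts before it, had 4.41 and 3.85 CPM and was highest in mesenchymal-like cells, at 23.1 and 14.7. The fourth gene of the group by symbol, cyp27c1, is known as an enzyme that changes vitamin A rather than vitamin D. It had 36.8 and 31.1 CPM in mesenchymal-like cells.

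Retinoic acid is broken down by the cyp26 enzymes. Vascular endothelial-like cells were led by cyp26b1, at 162 CPM (597 UMIs) in WT and 168 CPM (571 UMIs) in il26KO, and neuron-like cells held 71.1 and 81.6 CPM, from 30 and 45 UMIs. In neuron-like cells cyp26a1 had 1 UMI in 1 WT cell and 117 UMIs in 9 il26KO cells, 34.2% of them in 1 cell, a log2 ratio of 5.50 (interval 3.98 to 11.80) between 51 and 57 cells. Its level over all kept cells was 2.97 and 5.53 CPM. The steroid hormone group of 7 members summed to 1.78 CPM in WT and 2.15 in il26KO, and cyp11c1, the 11-beta hydroxylase gene, had 42 and 61 UMIs in all.

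Neighbouring members did not share 1 pattern. In the gene order of the RefSeq annotation of assembly GRCz12tu, in which 71 of the 80 members were found by symbol, 8 runs of members had at most 2 other genes between neighbours. The longest run, of 11 members from cyp2n13 to cyp2j20, was divided between the classes. Its members cyp2n13, cyp2p6, cyp2p7, cyp2p8 and cyp2p9 were highest in anterior enterocyte-like cells and cyp2ad2, cyp2ad3 and cyp2ad6 in mesenchymal-like cells, each in both libraries. In a run of 8 cyp2k genes, the 6 whose highest class was the same in both libraries were spread over 5 classes, with cyp2k18 highest in anterior, cyp2k19 in ileal and cyp2k6 and cyp2k20 in lysosome-rich enterocyte-like cells, cyp2k16 in epidermal-like and cyp2k8 in duct-like cells. In the run of 10 members with the cyp2aa genes and cyp2ae1, 7 had the same highest class in both libraries, and these took 3 classes (anterior enterocyte-like, enteroendocrine-like and epidermal-like). Some of these highest levels were not clear of the empty droplets by counting intervals. Such members were cyp2p6, cyp2p8, cyp2p9, cyp2k16, cyp2k20, cyp2aa2, cyp2aa4, cyp2aa7, cyp2aa8 and cyp2aa12. The other members of these runs with the same highest class in both libraries were clear of them there.

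**Figure D3:**
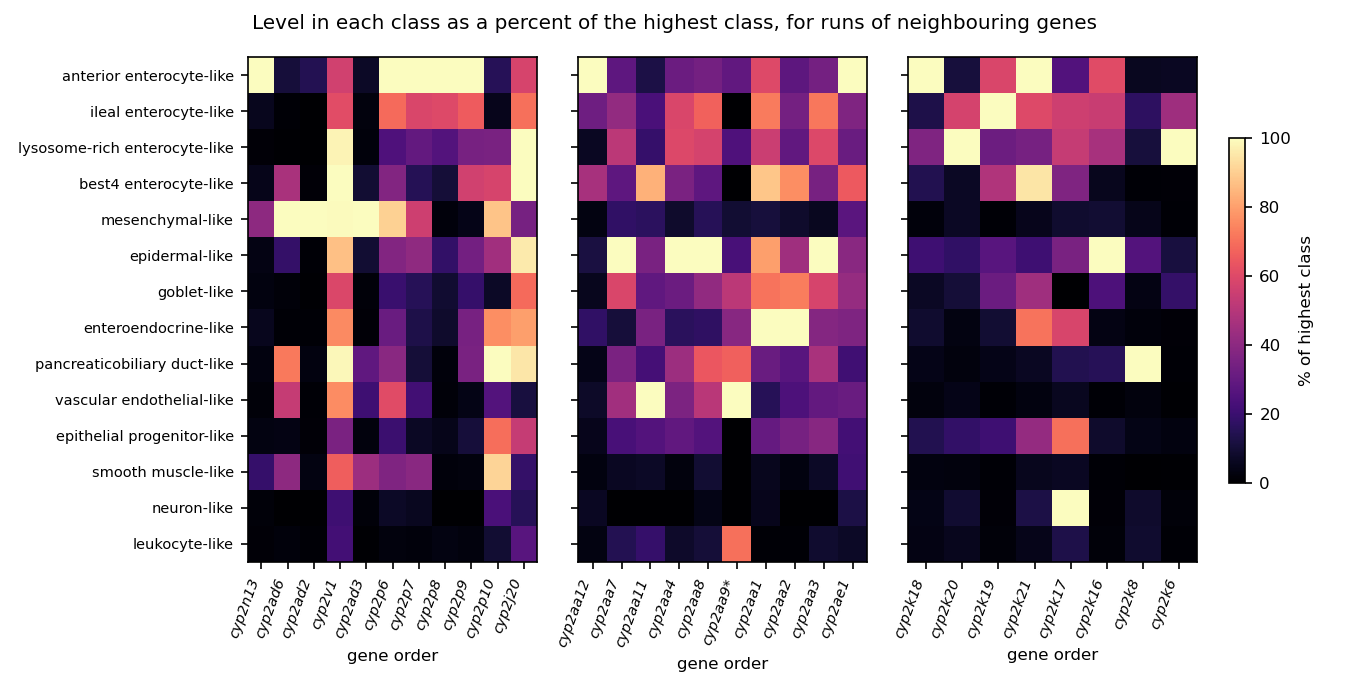
Members of the 3 longest runs of neighbouring P450 genes in RefSeq order (11, 10 and 8 members), with the mean level of the 2 libraries in each class as colour, in percent of the member's highest class. An asterisk marks members with under 50 UMIs. In the first run cyp2n13, cyp2p6, cyp2p7, cyp2p8 and cyp2p9 are highest in anterior enterocyte-like cells and the cyp2ad genes in mesenchymal-like cells.

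Between the genotypes, P450 transcripts summed to 3063 CPM in WT and 3479 in il26KO over all kept cells. The log2 ratio, il26KO over WT, was 0.18 (interval 0.18 to 0.19). The mix of cells moved with it. Anterior enterocyte-like cells gave 35.7% of all kept UMIs in WT and 45.8% in il26KO, and 64.9% and 76.1% of the P450 UMIs. With the il26KO class levels weighted by the WT shares of UMIs the summed level was 3053 CPM, a log2 ratio of -0.0047.

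Within the absorptive classes the summed level differed little. The log2 ratio was 0.05 (interval 0.04 to 0.06) in anterior, -0.11 (-0.14 to -0.07) in ileal and -0.22 (-0.24 to -0.19) in lysosome-rich enterocyte-like cells, and -0.14 (-0.18 to -0.09) in mesenchymal-like cells. In lysosome-rich enterocyte-like cells it was -0.38 without cyp3a65. In this class cyp2k6 held 10891 of the 37489 P450 UMIs in WT and 3201 of the 26871 in il26KO. Family 2, which includes cyp2k6, had a summed log2 ratio of -0.61 there. Family 1 had -0.44, family 3 had 0.11 and family 4 had 0.03. The median of the 46 members with at least 50 UMIs was 0.05 in this class. Larger differences, in both directions, were found in classes with fewer P450 UMIs. The log2 ratio was -0.73 in goblet-like and -0.56 in progenitor-like cells, where 15 and 14 members had at least 50 UMIs, and 0.60 (interval 0.33 to 0.87) in neuron-like, 0.36 in leukocyte-like and 0.27 in smooth muscle-like cells. Of the 348 P450 UMIs of il26KO neuron-like cells, 117 were of cyp26a1. RNA of other cell types differed in the same classes. Acinar markers summed to 42358 CPM in WT and 19894 in il26KO in goblet-like cells, to 319 and 80.3 in progenitor-like cells and to 377 and 16.3 in neuron-like cells. The goblet-like sums lay above those of the empty droplets of both libraries (10283 and 366 CPM). Erythrocyte markers summed to 1193 and 50.7 CPM in progenitor-like cells, and hepatocyte markers to 26.1 and 176 in neuron-like cells. Their part in the P450 ratios was not tested. Scaling by the median of gene ratios in place of the total, which moves the median gene by 0.18 in anterior enterocyte-like cells, gave -0.12 there, so that the direction in this class depends on the scaling.

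Single members differed more than the sum. A member was counted as past 2-fold at a log2 ratio of at least 1 or at most -1, with a pseudocount of 1 UMI, among members with at least 50 UMIs over both libraries. Over all kept cells 7 of 71 members were past 2-fold higher in il26KO, where 3.2% of all 20997 genes with at least 50 UMIs were, and 3 were past 2-fold lower, where 2.42% of all genes were. The median log2 ratio was 0.12 for the members and 0.03 for all genes. The higher members were cyp27a1.4, cyp2x8, cyp26c1, cyp2x12, cyp27c1, cyp2k18 and cyp2x9, and the lower ones cyp2k6, cyp24a1 and cyp27a1.2.

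In anterior enterocyte-like cells 6 of 60 members were past 2-fold higher (5.97% of all genes) and 3 lower (2.24%), with medians of 0.09 for the members and 0.18 for all genes. In ileal enterocyte-like cells 3 of 40 were higher (3.13%) and 1 lower (2.17%), and the medians were 0.11 and 0.09. In lysosome-rich enterocyte-like cells 3 of 46 were higher (3.3%) and 2 lower (3.64%), with medians of 0.05 and 0.04. In mesenchymal-like cells 0 of 31 were higher (2.4%) and 3 lower (1.51%), with medians of -0.20 and 0.08. The 3 lower members there, cyp2k6, cyp2p10 and cyp2x7, each had under 100 UMIs.

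**Figure D4:**
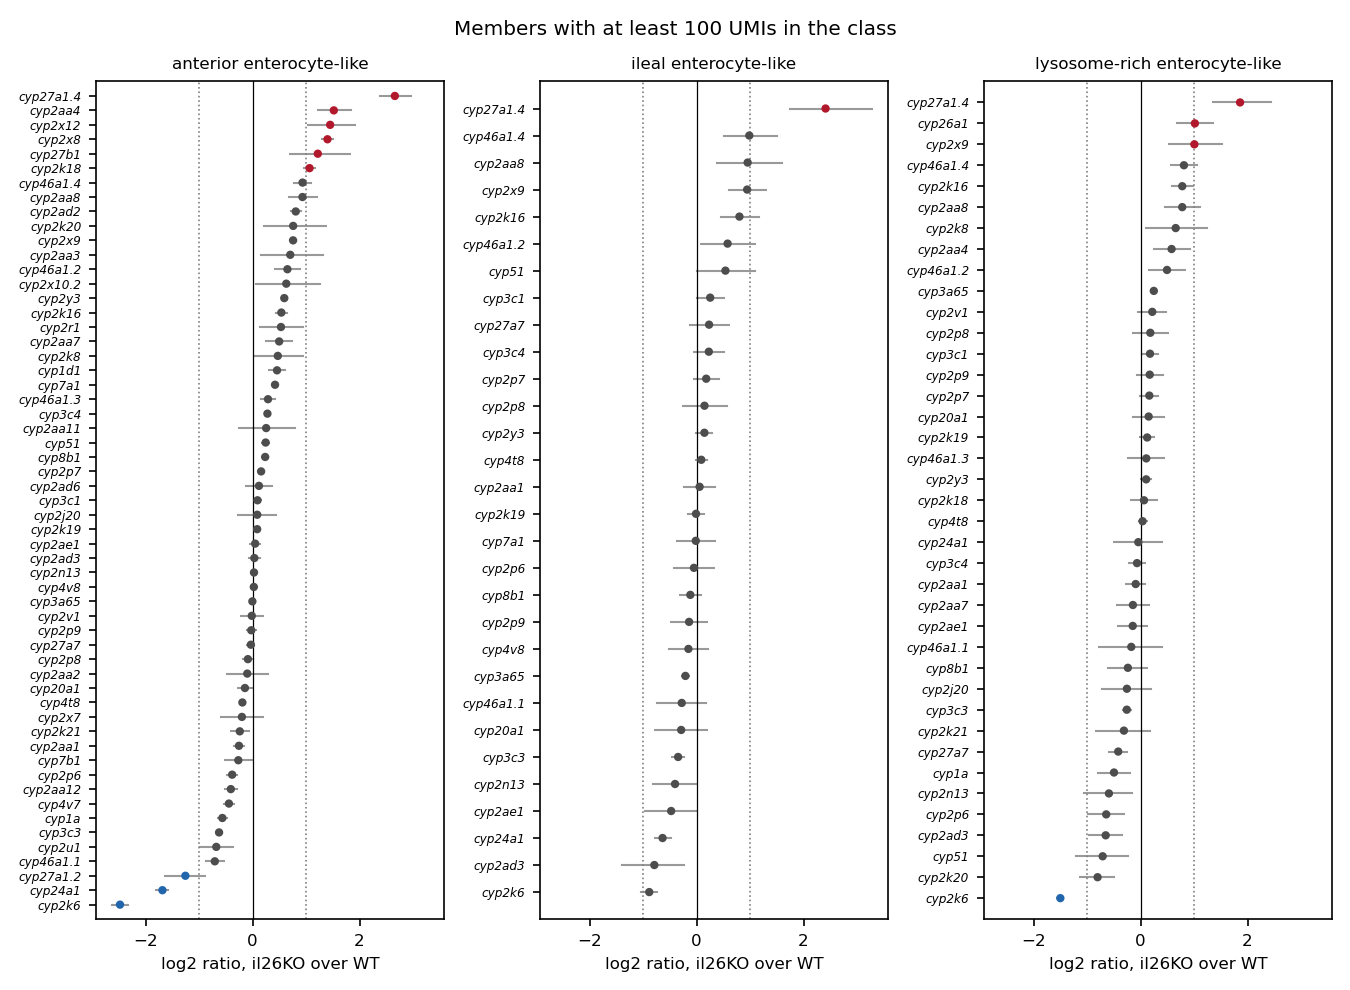
Log2 ratio (il26KO over WT) of each member with at least 100 UMIs in anterior, ileal and lysosome-rich enterocyte-like cells, with 95% counting intervals as lines and dotted lines at 2-fold. In each panel cyp27a1.4 lies at the top (2.66, 2.41 and 1.86) and cyp2k6 at the bottom (-2.48 in anterior and -0.89 in ileal cells).

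The lowest ratio over all kept cells was that of cyp2k6, a family 2 enzyme that is known to activate the mould toxin aflatoxin in vitro. WT cells held 15278 UMIs (153 CPM, interval 151 to 156) and il26KO cells 4786 (49.6 CPM, 48.2 to 51.1), which gave a ratio of -1.63 on the log2 scale (-1.68 to -1.58). Most of them were in lysosome-rich enterocyte-like cells, of which it was the leading member in WT at 715 CPM (10891 UMIs in 497 cells), against 252 CPM (3201 UMIs in 323 cells) in il26KO, which is 2.83-fold lower. The lower level was not equal across the clusters of this class. It was 985 and 313 CPM in cluster 6 and 421 and 197 in cluster 4, but 258 and 237 in the small cluster 28.

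Other classes had lower cyp2k6 levels in il26KO as well. Ileal enterocyte-like cells had 278 and 150 CPM of cyp2k6 (log2 ratio -0.89), anterior ones 54.2 and 9.69 (-2.48), goblet-like cells 169 and 9.92 from 230 and 8 UMIs, and epidermal-like cells 63.9 and 47.2. Empty droplets had 191 and 49.8 CPM, so free RNA of cyp2k6 was lower in il26KO too. The anterior, goblet-like and epidermal-like levels lay below those of the empty droplets in both libraries. After thinning, the share of lysosome-rich enterocyte-like cells with a cyp2k6 UMI was 37.9% in WT (interval 34.0% to 41.8%) and 23.1% in il26KO (19.2% to 27.4%), against 0.442% and 0.508% in leukocyte-like cells. Without thinning it was 80.0% and 72.7%.

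The vitamin D 24-hydroxylase gene cyp24a1 had 4191 UMIs (42.1 CPM) in WT, but 1842 (19.1 CPM) in il26KO (log2 ratio -1.14; interval -1.22 to -1.06). In anterior enterocyte-like cells it had 2420 and 933 UMIs (-1.69; -1.80 to -1.58) and in ileal ones 890 and 622 (-0.64; -0.79 to -0.49). A single il26KO cell held 13.3% of the anterior UMIs of that library, and without the cell that held most of them in each library the anterior ratio was -1.85. With equal weight of cells the ratio over all kept cells was -0.94, within 2-fold. Anterior levels were lower in il26KO in each of the 3 clusters, at 88.4 and 21.0 CPM in cluster 0, 94.3 and 66.1 in cluster 2 and 36.2 and 13.7 in cluster 5. Epidermal-like cells had 41.5 and 8.52 CPM of cyp24a1 and empty droplets 29.5 and 19.9. In lysosome-rich enterocyte-like cells, with 98 and 79 UMIs, the ratio was -0.04 (-0.49 to 0.39). The vitamin D receptor genes were within 2-fold over all kept cells, with log2 ratios of -0.34 for vdra and -0.21 for vdrb.

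The highest ratio over all kept cells belonged to cyp27a1.4 (ENSDARG00000055159), a copy of the sterol 27-hydroxylase gene. The WT library had 259 UMIs of it (2.60 CPM) and the il26KO library 1261 (13.1 CPM), at a ratio of 2.33 on the log2 scale (2.14 to 2.53). All 3 absorptive classes had more of it in il26KO, at 3.24 and 20.6 CPM in anterior (2.66), 4.87 and 27.1 in ileal (2.41) and 2.56 and 9.46 in lysosome-rich enterocyte-like cells (1.86). The UMIs were spread over many cells, 234 in WT and 603 in il26KO, and no cell held more than 1.54% of them. Empty droplets had 2.69 and 9.96 CPM, on totals of only 372271 and 401546 UMIs, which leaves too few counts of this gene to compare. Its neighbour in the genome, cyp27a1.2, went the other way, with 291 and 138 UMIs over all kept cells (-1.02; -1.33 to -0.73) and 178 and 92 in anterior enterocyte-like cells (-1.26). The ratio of cyp27a1.2 over all kept cells was within 2-fold with equal weight of cells (-0.86) and after subtraction of the empty droplet profile (-0.93). How reads were divided between these 2 paralogues could bear on both values and was not tested.

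**Figure D5:**
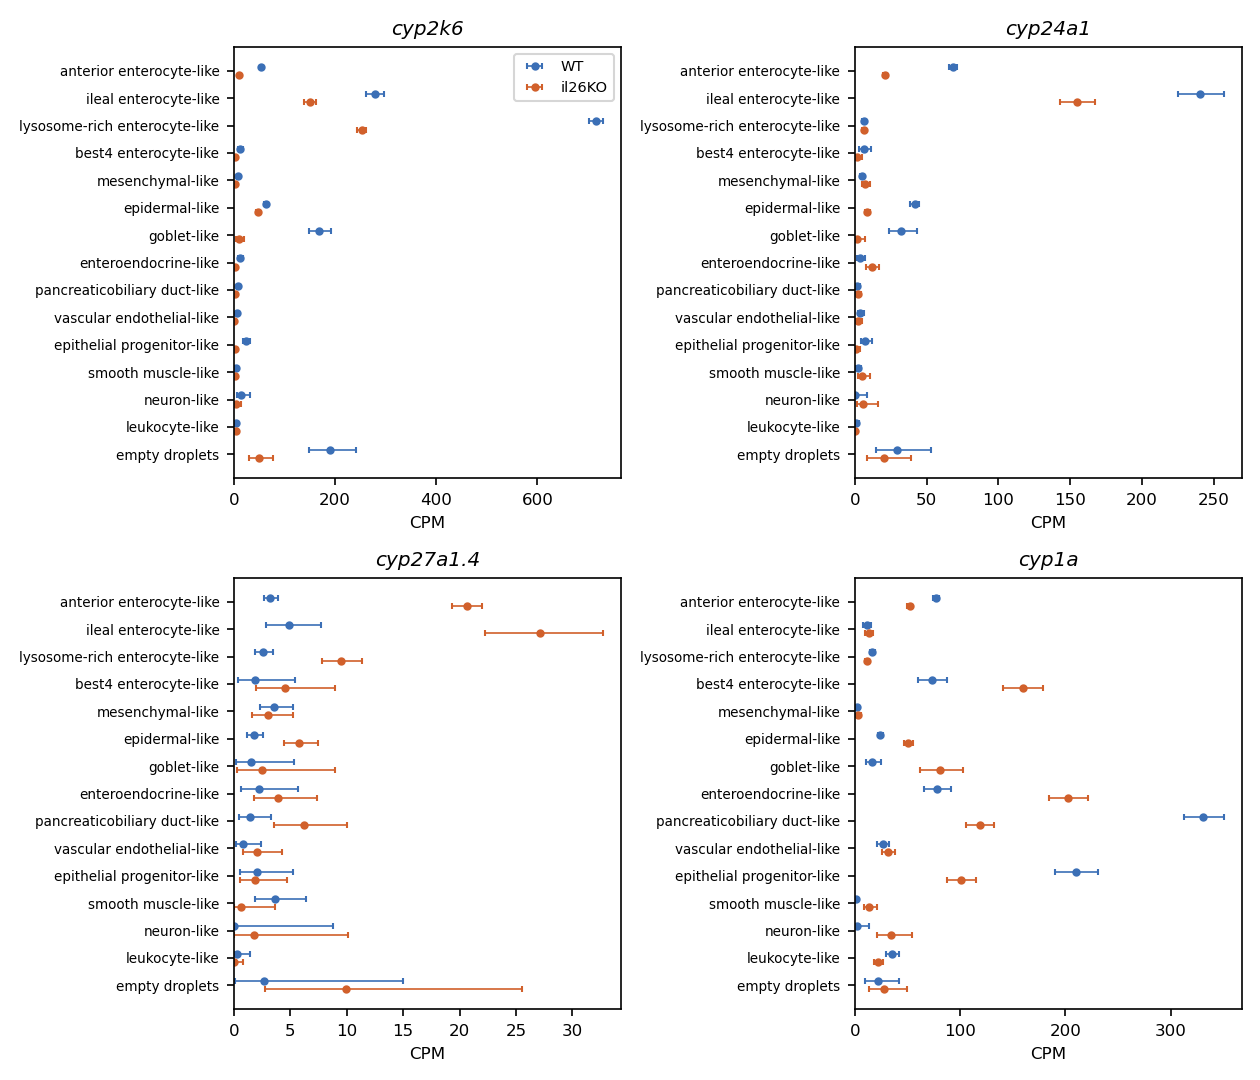
Levels of cyp2k6, cyp24a1, cyp27a1.4 and cyp1a in CPM by class and in empty droplets, for WT and il26KO, with 95% counting intervals. The panels show cyp2k6 at 715 and 252 CPM in lysosome-rich, cyp24a1 at 241 and 155 in ileal and cyp27a1.4 at 3.24 and 20.6 in anterior enterocyte-like cells, and cyp1a at 331 and 118 in duct-like cells.

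Of the 6 cyp2x members, 3 were past 2-fold higher in il26KO over all kept cells, where 3.2% of all genes were. The members cyp2x6, cyp2x7 and cyp2x10.2 were not. In anterior enterocyte-like cells, where most UMIs of the 3 higher members were, cyp2x9 had 134 and 226 CPM (log2 ratio 0.76), cyp2x8 30.5 and 80.6 (2.64-fold higher) and cyp2x12 1.60 and 4.44 (1.45; 1.04 to 1.92). Over all kept cells the ratios were 1.09 for cyp2x9 (5084 and 10496 UMIs), 1.75 for cyp2x8 (1110 and 3618 UMIs) and 1.61 for cyp2x12 (74 and 221 UMIs). For cyp2x9 the ratio was thus past 2-fold over all kept cells but not within the anterior class, whose share of all UMIs differed between the libraries. In lysosome-rich enterocyte-like cells cyp2x9 was past 2-fold on only 57 and 96 UMIs (1.01), and turned to -0.79 when all cells had equal weight.

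In anterior enterocyte-like cells the other members past 2-fold higher were cyp2aa4 (111 and 398 UMIs; log2 ratio 1.52), cyp27b1 (37 and 109 UMIs; 1.22) and cyp2k18 (1192 and 3101 UMIs; 1.06). Ileal enterocyte-like cells also had higher cyp2aa4 (21 and 67 UMIs; 1.51) and higher cyp26a1 (22 and 60 UMIs; 1.29), and lower cyp2aa12 (61 and 28 UMIs; -1.22). Lysosome-rich enterocyte-like cells had lower cyp2aa12 too (49 and 19 UMIs; -1.06). Their cyp26a1 ratio (119 and 201 UMIs; 1.01) was just past 2-fold and became 0.98 both with equal weight of cells and with median-of-ratios scaling. In mesenchymal-like cells cyp2k6 had 55 and 9 UMIs, cyp2x7 51 and 8, and cyp2p10 45 and 11.

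Some ratios rested on 1 cell. Over all kept cells cyp27c1 had 395 UMIs in WT and 894 in il26KO (log2 ratio 1.22), but a single epidermal-like il26KO cell held 646 of them, or 72.3%. Without the cell that held most cyp27c1 UMIs in each library the ratio was -0.54. In leukocyte-like cells cyp3a65, their leading member, had 75 and 280 UMIs (1.63), of which 1 il26KO cell held 47.9%, and the ratio without such cells was 0.83. The ratio of cyp26c1 over all kept cells, 1.69, rested on 16 and 52 UMIs.

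Of the 12 members with the highest mean level, 10 were within 2-fold in all 3 absorptive classes, the exceptions being cyp2k6 (anterior and lysosome-rich) and cyp2x9 (lysosome-rich). Of all genes, 5.97% were past 2-fold higher and 2.24% lower in anterior, 3.13% and 2.17% in ileal and 3.3% and 3.64% in lysosome-rich cells. For cyp3a65 the log2 ratio in anterior enterocyte-like cells was -0.01 (interval -0.02 to 0.01), for cyp2n13 0.03 and for cyp7a1 0.42 (0.37 to 0.46). Lower in il26KO, but within 2-fold, was cyp3c3 at -0.63 (-0.66 to -0.59), and higher was cyp2y3 at 0.59 (0.55 to 0.63). Over all kept cells the ratios of the remaining leading members were 0.05 for cyp4t8, 0.38 for cyp3c4, -0.38 for cyp2ad3, 0.20 for cyp2k19 and 0.26 for cyp2p7.

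Hepatocyte and acinar RNA moved between the libraries beside these ratios. In anterior enterocyte-like cells hepatocyte markers summed to 541 and 841 CPM and acinar markers to 94.8 and 10.8, in ileal enterocyte-like cells to 221 and 459 and to 316 and 15.4, and in lysosome-rich enterocyte-like cells to 19.5 and 103 and to 116 and 11.9. Of 24 named ratios past 2-fold, 24 stayed past 2-fold without the hepatocyte-like and acinar-like cells that a finer clustering separated. Those of the ileal, lysosome-rich, duct-like, progenitor-like, neuron-like and leukocyte-like classes were the same with and without these cells. Leaving the cells out therefore did not check the ratios of these classes. After the profile of empty droplets had been subtracted 23 stayed, the exception being cyp27a1.2 over all kept cells. The share subtracted was set by the acinar or hepatocyte marker that was lowest against that profile, and was small. It was 4.56% in WT and 10.5% in il26KO over all kept cells and 0.67% and 1.82% in anterior enterocyte-like cells. In ileal, progenitor-like, leukocyte-like and neuron-like cells it was 0% in both libraries, so the ratios there could not move and were not checked by this step.

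Genes that work with P450 enzymes mostly lay within 2-fold over all kept cells, where 3.2% of all genes were past 2-fold higher and 2.42% lower, at a median log2 ratio of 0.03. The mix of cells, with 35.7% of UMIs from anterior enterocyte-like cells in WT and 45.8% in il26KO, enters these values. Of 11 electron transfer partners, 0 were past 2-fold, with a median of 0.34. The P450 reductase gene porb had 140 and 154 CPM (0.14) and the mitochondrial ferredoxin gene fdx1 163 and 242 (0.57). Within classes the partner median was 0.25 in anterior, 0.19 in ileal and 0.29 in lysosome-rich enterocyte-like and -0.03 in mesenchymal-like cells. Medians of all genes there were 0.18, 0.09, 0.04 and 0.08. In anterior enterocyte-like cells 1 of 10 partners, cyb5r1, was past 2-fold higher (5.97% of all genes), and none was past 2-fold in the other 3 classes. Over all kept cells heme synthesis had 0 of 10 genes past 2-fold and a median of 0.20, and alas1, its rate-limiting enzyme outside blood cells, had 363 and 539 CPM (0.57). The heme synthesis median had the other sign in ileal enterocyte-like cells, at -0.43 over 5 genes with at least 50 UMIs, against 0.09 for all genes there.

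Receptors and regulators of P450 genes had 0 of 28 past 2-fold higher, 1 lower and a median of -0.04 over all kept cells. For these and the following lists the shares of all genes were 3.2% higher and 2.42% lower, at a median of 0.03. The lower regulator was ahr1a, an aryl hydrocarbon receptor, at 578 and 213 UMIs (log2 ratio -1.39, interval -1.63 to -1.16). The main such receptor in zebrafish, ahr2, had 84.7 and 80.6 CPM (-0.07) and nr1i2, the xenobiotic receptor PXR, 28.6 and 29.0 (0.02). Within classes nr0b2a was past 2-fold higher in lysosome-rich (1 of 24 regulators; 3.3% of all genes) and mesenchymal-like cells (1 of 19; 2.4%). The gene ahr1a was past 2-fold lower in anterior (1 of 25; 2.24%) and lysosome-rich cells (1 of 24; 3.64%). In ileal cells 0 of 19 were past 2-fold. Conjugation enzymes, which act on P450 products, had 4 of 54 past 2-fold higher and 0 lower, with a median of 0.32. The 4 were sult1st2 (1.56), sult1st3 (1.04), sult3st4 (1.55) and ugt5c2. In anterior enterocyte-like cells 5 of 49 conjugation enzymes were higher (5.97% of all genes) and 0 lower, with a median of 0.29 (0.18 for all genes). In ileal cells 4 of 37 were higher (3.13%) and 0 lower (2.17%). In lysosome-rich cells 6 of 47 were higher (3.3%) and 2, sult3st3 and ugt8, lower (3.64%). In mesenchymal-like cells 0 of 23 were higher (2.4%) and 1, sult1st1, lower (1.51%). Over all kept cells 1 of 10 efflux transporters was higher, the bile salt pump gene abcb11b at 86 and 286 UMIs (1.77), and the median was -0.01. Of 19 other genes of retinoic acid metabolism, with a median of 0.25 (-0.13 over 9 genes in ileal enterocyte-like cells), 3 were higher, rbp2b (1.42), crabp1a (1.53) and crabp2a (1.13). In anterior enterocyte-like cells 0 of 12 were past 2-fold, with a median of 0.13. The gene rbp2b is also on the hepatocyte list, and the part of hepatocyte RNA in its ratio was not tested.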

How the data were processed

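The authors deposited raw UMI counts. The file headers name Cell Ranger 7.1.0, and the submitters' processing notes name build danRer11. Which annotation release was used, and whether intronic reads were counted, is not given in the sources used here. The deposited barcodes were not filtered to cells. Barcodes with at least 500 genes and at most 25% mitochondrial UMIs were kept. Scrublet (scanpy 1.11.5, Python 3.11.15) called 1 doublet per library and had not worked, so the highest scores were removed at 0.8% per 1000 cells (229 WT and 126 il26KO barcodes). Seurat 5.3.0 (R 4.3.3) log-normalised counts to 10000, took 2000 variable genes without mitochondrial and P450 genes, joined the libraries by CCA over 30 dimensions and clustered at resolution 0.8.

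A cluster took the class whose markers, of 18 lists, had the highest mean fold, with at least 3 markers present in 10% of cells and 2-fold higher (pseudocount 20 CPM). Features with the same symbol were added up. Levels are CPM of the class total with exact Poisson intervals. Gene ratios used a pseudocount of 1 UMI and exact conditional binomial intervals, and shares of cells exact Clopper-Pearson intervals. PCR duplicates were removed by UMI, and intervals cover counting error only. The ratio script was tested on simulated data.

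Named members were the 12 with the highest mean level, the leading member of each class with at least 50 cells per library, the 4 highest and 4 lowest ratios past 2-fold with at least 100 UMIs over all kept cells and in the anterior, ileal and lysosome-rich enterocyte-like and mesenchymal-like classes, and members with at least 100 UMIs in the retinoic acid, vitamin D, sterol and steroid groups. Other members were named after their values were seen, to complete a role group, a count or a run. Members, lists and rules were chosen with earlier results of these data known. No sequence is shown, because no genome or sequence table was used here.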

Additional observations from a re-analysis of the deposited data

Results flagged for a closer look

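The aryl hydrocarbon receptor target cyp1a differed in opposite directions between classes. Its log2 ratio (il26KO over WT) was -1.48 in pancreaticobiliary duct-like cells (1178 and 306 UMIs) and -1.06 in epithelial progenitor-like cells (412 and 218 UMIs). It was 1.12 in best4 enterocyte-like cells (118 and 280 UMIs), 1.38 in enteroendocrine-like cells (140 and 470 UMIs) and 1.09 in epidermal-like cells (360 and 524 UMIs). The difference between the classes was not tested, because each library is 1 sample. Few cells carried the gene, for example 20 WT and 32 il26KO enteroendocrine-like cells, and in epidermal-like cells the ratio was 0.75 without the cell that held most cyp1a UMIs in each library. With equal weight of cells the duct-like ratio was within 2-fold. Hepatocyte markers summed to 3299 and 3481 CPM in duct-like cells, and their part in the cyp1a values was not tested.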

How the results depend on the processing

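No paired analysis was possible because each group had 1 library, and for the same reason no replicate could be left out. Under every alternative tried, 2 classes lay above the empty droplets in both libraries. Median-of-ratios scaling gave summed P450 log2 ratios of 0.16 over all kept cells, -0.12 in anterior (reversed), -0.18 in ileal and -0.26 in lysosome-rich enterocyte-like cells. Equal weight of cells gave 0.074, 0.0072, -0.19 and -0.19 in the same order. Subtraction of the empty droplet profile gave 0.22 over all kept cells and 0.062 in anterior cells, where it took only 0.67% of UMIs in WT and 1.82% in il26KO. In ileal cells it took 0% in both libraries and could not move the ratio. A minimum of 300 genes gave 0.035 and a mitochondrial share of at most 10% gave 0.038 in anterior cells, and the latter gave -0.25 in lysosome-rich cells. Doublets kept gave 0.20 over all kept cells and -0.26 in lysosome-rich cells. Chosen after seeing the data, leaving out the shallow anterior cluster 2 gave 0.21 over all kept cells and 0.026 in anterior cells. Weighting by WT class shares, also chosen after seeing the data, gave -0.0047 over all kept cells (reversed). The 9 members past 2-fold in anterior cells became 17 with a minimum of 1 UMI and 14 with equal weight of cells. Among named members, equal weight turned cyp27c1 over all kept cells to -0.42 and cyp2x9 in lysosome-rich cells to -0.79, and leaving out the top cells (chosen after seeing the data) turned cyp27c1 to -0.54. Of 24 named ratios past 2-fold, 17 stayed past it with equal weight and 22 with median-of-ratios scaling. Equal weight lost cyp24a1 (-0.94), cyp27a1.2 (-0.86) and cyp27c1 over all kept cells, cyp26a1 (0.98) and cyp2x9 in lysosome-rich, cyp1a in duct-like and cyp3a65 in leukocyte-like cells. The scaling lost cyp26a1 (0.98) and cyp2x9 in lysosome-rich cells. The causes of these moves were not tested.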
